A study of Homo sapiens with 16 samples.

Results

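The comparison described here sets EZH2 inhibitor alone (EZH2i) against its vehicle, dimethyl sulphoxide (DMSO), in MOLM-13 cells. MOLM-13 is a line of human acute myeloid leukaemia of monocytic type and carries an MLL fusion gene. Its members were chosen by treatment label and are 8 of the 16 libraries of the series, 4 with EZH2i and 4 with DMSO. EZH2i cells had received an EZH2 inhibitor at 1 µM and DMSO cells 0.005% DMSO, in each case for 4 days in serum-containing medium. The other 8 libraries came from cells given a PRMT5 inhibitor (PRMT5i, 1 µM) with or without the EZH2 inhibitor, 4 libraries of each kind. They serve here for the shared filter on low counts, scaling and estimate of spread, and for a second look at the genes. Neither compound is named in the labels. All groups are 1 cell line, and no source states whether the 4 replicates of a group were grown as separate cultures, so that p-values measure only the spread between these samples. Genes of the interferon response, of sterol synthesis and of developmental control, which form 3 lists, were set aside, and the genes and processes outside them are described together with how far each call depends on single DMSO libraries.

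EZH2 is the catalytic subunit of polycomb repressive complex 2 (PRC2), which places methyl groups on lysine 27 of histone H3. The fully methylated form of this mark is found at silent genes, and PRC2 is known for holding lineage and developmental genes off in blood progenitors. Loss of PRC2 activity is followed first by loss of the mark during cell division and then by release of some of the marked genes, while genes that fall are in general further down the line.

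Library depth was 33.9 to 48.8 M expected counts with EZH2i and 31.1 to 52.9 M with DMSO, and 16555 of 60669 genes had counts high enough to test. The DMSO libraries differed among themselves. Mitochondrially encoded transcripts of all kinds took 0.361% to 0.560% of counts with EZH2i, against 1.70%, 0.518%, 0.262% and 0.213% in DMSO replicates 1 to 4. The 13 protein genes among them summed to 3378 to 3962 counts per M with EZH2i. In DMSO replicates 1 to 4 they summed to 1027, 3737, 2617 and 2148 counts per M. DMSO replicate 1 thus had the largest share of all mitochondrial counts but the smallest sum of these genes. On the first principal component of the 8 libraries, which held 40.1% of the variance, the EZH2i libraries scored 50.8, 6.38, 27.4 and −4.24 and the DMSO libraries −62.0, 35.1, −21.0 and −32.4, so that DMSO replicate 2 lay among the EZH2i libraries. The loadings of that component correlated with transcript GC content at 0.504 across genes, which are not independent. Myeloid markers of the line were well expressed in all 8 libraries, with CD33 at 71.3 to 87.9 CPM (a gene's counts per M counts of the library) with EZH2i and 73.1 to 87.6 CPM with DMSO. The defining markers CDH1, KRT5 and PF4 of epithelial and platelet lineages were at 0 in all 8 libraries, whereas EPCAM and ITGA2B of the same lineages were detected at up to 0.520 CPM.

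The mRNA of the inhibited enzyme did not pass the test. EZH2 measured 47.6, 48.6, 48.6 and 48.3 CPM with EZH2i, against 21.5, 42.5, 43.8 and 42.4 CPM with DMSO. Only DMSO replicate 1 stood apart. The log2 fold change was 0.36 (SE 0.16) with an adjusted p of 0.151 by edgeR's quasi-likelihood test with Benjamini-Hochberg adjustment, the test behind every adjusted p of a gene given here. Of 12 tested PRC2 subunits 1 rose, the accessory subunit JARID2, with 133 ± 6.8 CPM in EZH2i libraries and 104 ± 13 CPM in DMSO libraries (SD, n = 4 each), a log2 fold change of 0.37 and an adjusted p of 0.0131. A drug that blocks the enzyme need not change its mRNA, so these values do not check the treatment label.

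A total of 1259 genes, 7.6% of those tested, passed an adjusted p of 0.05. Of these, 681 were higher with EZH2i (4.11%) and 578 were lower (3.49%). The split depended on scaling, with 855 higher and 289 lower when libraries were scaled by total counts alone, and 1225 higher and 2090 lower after a correction for GC content. The median log2 fold change of all tested genes was −0.01, and 0.09 under total counts.

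Most calls rested on which DMSO libraries were in the fit, and many on which EZH2i libraries were. Without DMSO replicate 1, 2, 3 or 4 the fit called 892, 4606, 753 or 505 genes. Of the 1259 calls, 477 were lost without replicate 1, 531 without replicate 3 and 756 without replicate 4, but 1 without replicate 2, the library that lay among the EZH2i libraries. Without EZH2i replicate 1, 2, 3 or 4, 710, 691, 810 or 893 of the 1259 calls were kept. No call changed its sign in any of these fits. A total of 467 genes, 2.82% of those tested, were called in the same direction with all libraries and in each of the 4 fits that leave out 1 DMSO library. They are called stable below, and comprise 275 genes that rose (1.66%) and 192 that fell (1.16%). Their log2 fold changes in the DMSO leave-out fits were 0.608 to 1.29 times the full value. Only ZNF410, COX14 and IARS moved by more than 1.5 times, in each case towards 0 without DMSO replicate 1, to −0.30, −0.33 and −0.29, against −0.50, −0.50 and −0.44 with all libraries. Of the 467 stable genes, 449 were also called without each EZH2i library in turn. The 4 EZH2i and the 4 DMSO libraries did not overlap for 448 of them, against 10.6% of all tested genes without overlap. All 467 had the same sign within replicates 1 and 2 and within replicates 3 and 4. These counts come from the same libraries that chose the stable genes, so they describe the choice and are no test of it.

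The stable calls lean on the spread shared over all 16 libraries. The root mean variance of log2 CPM was 0.414 in EZH2i and 0.459 in DMSO libraries, against 0.342 with both inhibitors and 0.309 with PRMT5i. A fit of the EZH2i and DMSO libraries alone called 133 genes (0.803%), of which 128 are stable genes. In that fit 82, 827, 5 and 5 genes were called without DMSO replicate 1, 2, 3 and 4, and 3 genes passed in it and in all of these: EGR2, ECI2 and the interferon gene CXCL10.

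**Figure D1:**
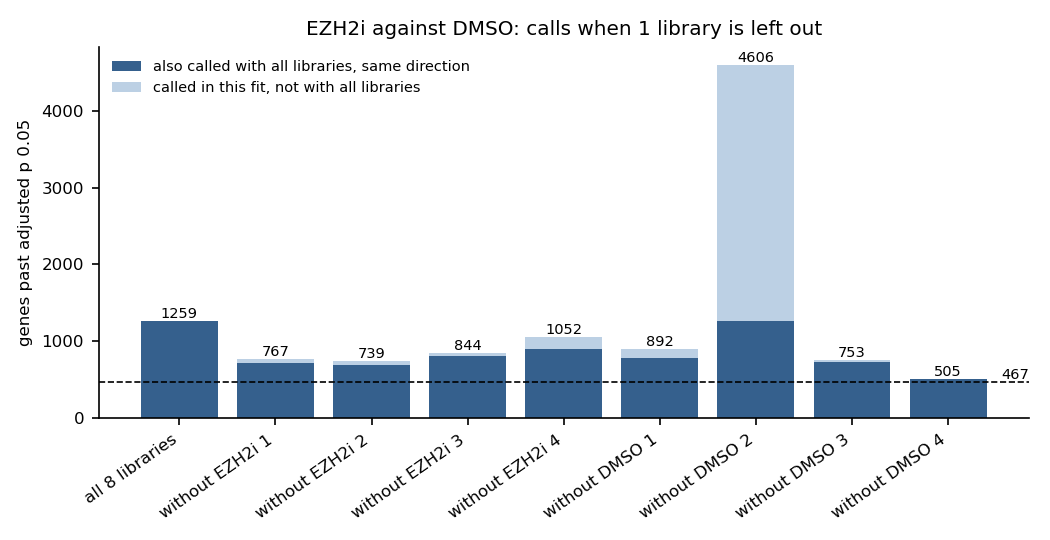
Number of genes past an adjusted p of 0.05 for EZH2i against DMSO (y axis) with all libraries and with 1 library left out (x axis). Dark bars are genes also called with all libraries in the same direction and light bars are other genes; the dashed line marks the 467 stable genes, and the bar without DMSO replicate 2 reaches 4606.

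Outside the set-aside lists 442 stable genes remained, of which 269 rose and 173 fell. The genes given first are the 12 in each direction with the largest fold change among stable protein-coding genes whose groups do not overlap and whose higher group averages 5 CPM or more. Genes at lower levels changed more, such as FST (2.72) and CCL2 (−2.22). Among the 12 that rose are transcription factors, junction and muscle proteins and enzymes. ARID5B, a DNA-binding cofactor of a histone demethylase (Ensembl ENSG00000150347, chr10:61901300-62096944 on GRCh38), had 7.23, 7.86, 6.92 and 9.99 CPM with EZH2i, against 2.495, 2.87, 3.30 and 2.57 CPM with DMSO. Each EZH2i library lay above every DMSO library, and the groups were each tight. The log2 fold change was 1.51 (SE 0.13, adjusted p = 1.39e-05) and ranged from 1.46 to 1.60 without single DMSO libraries. FAM46C, a poly(A) polymerase that stabilises mRNAs and is often mutated in myeloma (ENSG00000183508, chr1:117605934-117628372), had 12.4, 13.04, 13.5 and 15.6 CPM with EZH2i and 2.38, 4.21, 4.97 and 4.46 CPM with DMSO. Its log2 fold change was 1.76 (SE 0.16) with an adjusted p of 1.39e-05. XIRP1, an actin-binding protein of muscle (ENSG00000168334, chr3:39183210-39192596), had 15.8, 15.7, 11.8 and 12.002 CPM with EZH2i and 3.47, 6.02, 4.03 and 2.98 CPM with DMSO, a rise of 1.75 (SE 0.19, adjusted p = 0.000121). AIG1, a transmembrane hydrolase of fatty acid esters (ENSG00000146416, chr6:143060496-143340304), averaged 36.4 ± 6.9 CPM with EZH2i and 13.4 ± 2.3 CPM with DMSO (SD, n = 4 each) and rose by 1.44 (adjusted p = 0.000145).

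The largest rise among the genes with at least 5 CPM was that of ECI2, an enoyl-CoA isomerase of fatty acid breakdown (ENSG00000198721, chr6:4115689-4135597). It had 6.49, 6.43, 4.69 and 5.97 CPM with EZH2i and 1.52, 1.22, 1.20 and 1.16 CPM with DMSO. The log2 fold change of 2.21 (SE 0.16, adjusted p = 1.93e-06) moved only between 2.16 and 2.31 in the leave-out fits. Its value is uncertain in 1 respect, since 27.1% of its exon bases are shared with C6orf201 on the other strand and it is not known whether reads were counted by strand. JUP, the junction protein plakoglobin, averaged 10.9 ± 3.1 CPM with EZH2i and 3.91 ± 1.9 CPM with DMSO (log2 fold change 1.4996, adjusted p = 0.00282). GPRC5C, an orphan receptor, averaged 7.55 ± 1.7 CPM with EZH2i and 3.41 ± 0.63 CPM with DMSO (1.15, adjusted p = 0.00151). ATP6V1C2, a subunit of the proton pump of acidic organelles, rose by 1.24, with 29.7% of its exon bases shared with PDIA6.

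In a further group of stable genes both treatments showed the same split, with replicates 1 and 2 above replicates 3 and 4. GATA2, a transcription factor of blood stem cells and mast cells (ENSG00000179348, chr3:128479427-128493185), had 106, 100, 55.5 and 56.9 CPM with EZH2i and 28.6, 51.5, 24.2 and 17.8 CPM with DMSO. RAB7B, a small GTPase of late endosomes, had 99.7, 99.7, 53.004 and 55.4 CPM with EZH2i and 36.7, 38.9, 16.4 and 16.7 CPM with DMSO. VWF, the platelet adhesion protein von Willebrand factor, had 7.58, 7.82, 4.24 and 3.16 CPM with EZH2i and 1.83, 3.02, 1.38 and 1.60 CPM with DMSO. In each of these 3 genes every EZH2i library was above every DMSO library, though for VWF by a narrow margin. The log2 fold change within replicates 1 and 2 and within replicates 3 and 4 was 1.37 and 1.43 for GATA2, 1.40 and 1.71 for RAB7B, and 1.67 and 1.32 for VWF. With all libraries it was 1.39 (adjusted p = 0.0134), 1.51 (adjusted p = 0.0063) and 1.56 (adjusted p = 0.00576). IGLL1, the surrogate light chain of the pre-B cell receptor, showed the same order with a rise of 1.61 (adjusted p = 0.00234); it has close relatives in the light chain locus, so its counts are uncertain. The labels give no batch or date for the replicate numbers.

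At the same limits of level and overlap, the 12 stable genes that fell most include 4 that encode surface or secreted proteins of immune cells, CD48, VCAN, FCER2 and TNF. CD48, a ligand of the SLAM receptor family (ENSG00000117091, chr1:160678746-160711851), had 2.22, 1.95, 2.17 and 1.64 CPM with EZH2i and 6.46, 4.396, 5.66 and 6.14 CPM with DMSO, a log2 fold change of −1.51 (SE 0.15) with an adjusted p of 5.83e-05. The transcript AL121985.1 shares 29.8% of its exon bases. VCAN, the large proteoglycan versican made by monocytes, averaged 3.26 ± 0.74 CPM with EZH2i and 7.92 ± 2.5 CPM with DMSO (−1.29, adjusted p = 0.0054). FCER2, the low-affinity IgE receptor CD23, had 11.3, 8.24, 11.1 and 6.78 CPM with EZH2i, against 17.6, 22.3, 25.1 and 25.7 CPM with DMSO (−1.28, adjusted p = 0.000255). In all 3 the groups did not overlap. The cytokine TNF (ENSG00000232810, chr6:31575567-31578336) had 16.5, 13.2, 16.6 and 14.3 CPM with EZH2i and 17.5, 33.0, 42.4 and 38.0 CPM with DMSO. DMSO replicate 1 was thus close to the EZH2i libraries, and the log2 fold change of −1.11 (adjusted p = 0.00404) became −1.32 without it. CHST2, a sulphotransferase that acts on glycans, fell by 1.17, the calcium-binding protein S100P by 1.14, FGD2, an exchange factor for the GTPase CDC42, by 1.04, PTK2, the focal adhesion kinase, by 0.99, TRIM7, a ubiquitin ligase, by 0.97, ME1, the cytosolic malic enzyme, by 0.95 and the receptor PLXDC2 by 0.94. C1orf54 fell by 0.96 but shares 36.3% of its exon bases with APH1A. In bulk libraries such as these, fewer cells of a type and less RNA per cell cannot be told apart.

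**Figure D2:**
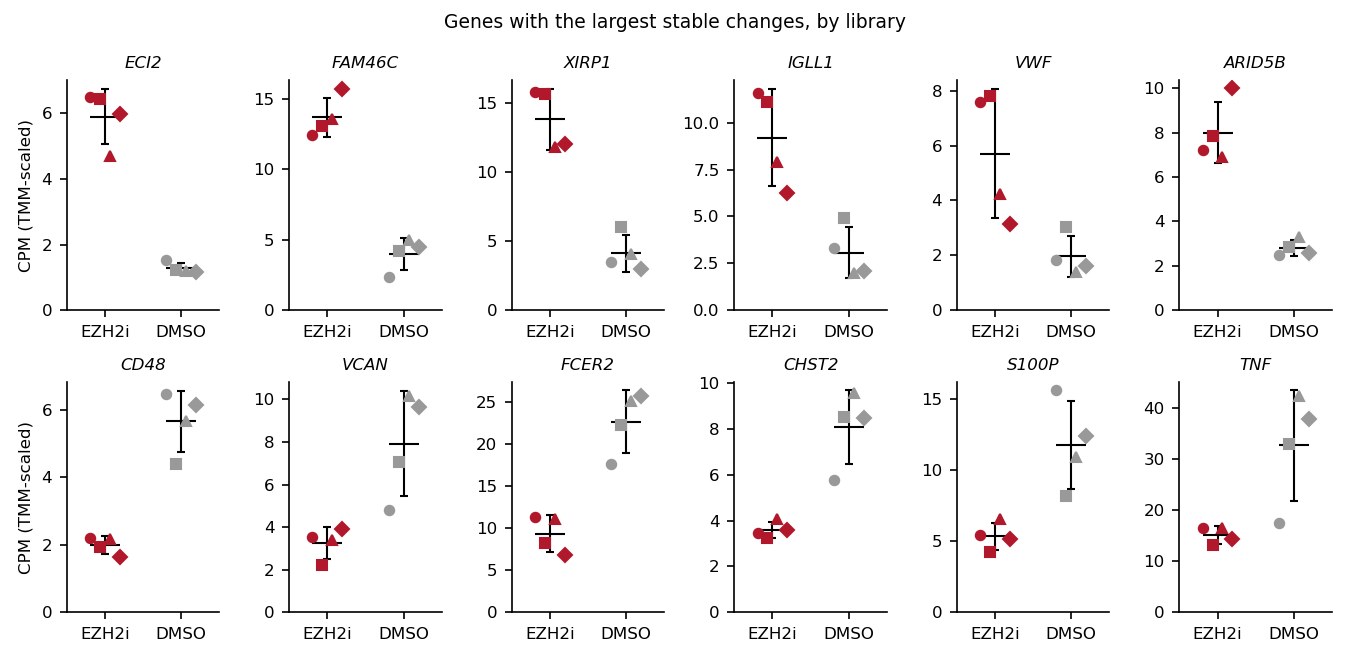
Expression in CPM with TMM-scaled library sizes (y axis, from 0) of the 6 genes with the largest stable rise (top) and the 6 with the largest stable fall (bottom), chosen among protein-coding genes outside the set-aside lists that average 5 CPM or more in 1 group and whose groups do not overlap, in 4 EZH2i (left) and 4 DMSO libraries (right). Circle, square, triangle and diamond are replicates 1, 2, 3 and 4, with mean and SD in black; in no panel do the groups overlap, and the gap is narrowest for VWF, at 3.16 and 3.02 CPM, and TNF, at 16.6 and 17.5 CPM.

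Outside the set-aside lists the genes were read through 42 process lists with 1802 genes, of which 1355 passed the filter on low counts. Of these 204 were called, 15.1%, against 7.6% of all tested genes. By gene type, 1156 of 12861 tested protein-coding genes and 60 of 2081 tested long non-coding RNA genes were called. The lists hold 94 of the 442 stable genes, and the other 348 are on none of them. The count for each list stands beside the background of 4.11% higher and 3.49% lower. A list was chosen with earlier results of these data known and gets no test of its own.

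**Figure D3:**
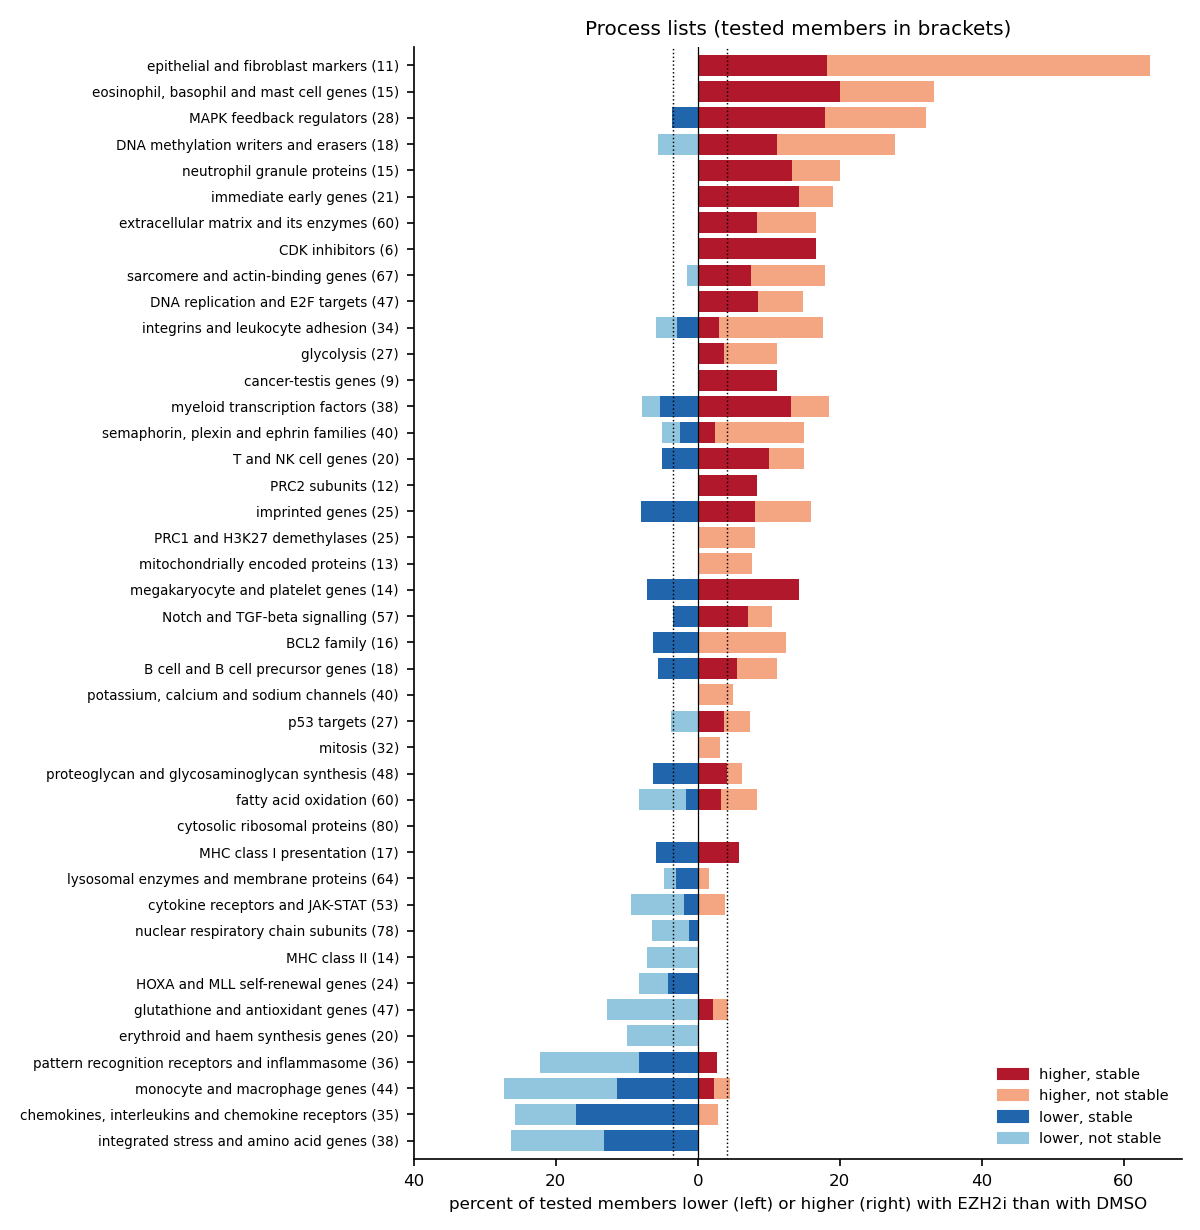
Percent of the tested members of each process list (y axis, number tested in brackets) that were higher (right, red) or lower (left, blue) with EZH2i than with DMSO. Dark parts are stable genes, and dotted lines mark 4.11% higher and 3.49% lower over all tested genes; epithelial and fibroblast markers lie furthest to the higher side (7 of 11) and monocyte and macrophage genes furthest to the lower side (12 of 44).

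Genes of mast cells, basophils and eosinophils moved to the higher side. Of 27 listed genes 15 were tested and 5 rose, with a median log2 fold change of 1.23 over the tested members. Stable among them were GATA2, KIT and SIGLEC6. KIT, the stem cell factor receptor, stayed low, with 0.415 ± 0.15 CPM in EZH2i libraries and 0.132 ± 0.027 CPM in DMSO libraries (SD, n = 4 each, adjusted p = 0.00905). SIGLEC6, a sialic acid receptor of mast cells, averaged 10.5 ± 1.2 CPM with EZH2i and 5.31 ± 0.68 CPM with DMSO (log2 fold change 0.98, adjusted p = 0.000119); 16.5% of its exon bases are shared with another gene. PRG2, the eosinophil major basic protein, was the most abundant, with 792, 826, 289 and 313 CPM with EZH2i and 286, 244, 58.8 and 59.6 CPM with DMSO. The lowest EZH2i library was only just above the highest DMSO library. Its call (1.78, adjusted p = 0.0432) was lost without DMSO replicate 3 or 4, and 43.0% of its exon bases are shared. The summed level of the tested list was 1308, 1288, 620 and 629 CPM with EZH2i and 652, 657, 309 and 322 CPM with DMSO, with the same split between replicates.

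Neutrophil granule proteins were called in 3 of 15 tested cases, all higher, while the summed level of the tested members was 5448 to 7076 CPM with EZH2i and 5728 to 7552 CPM with DMSO. MPO, the peroxidase of granulocyte granules, had 31.8, 33.4, 26.0 and 24.9 CPM with EZH2i and 10.5, 23.0, 15.9 and 13.3 CPM with DMSO, a stable rise of 0.89 (adjusted p = 0.0113). AZU1, azurocidin, was at 655 ± 130 CPM with EZH2i and 354 ± 180 CPM with DMSO, and its call was lost without DMSO replicate 1, 3 or 4.

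Monocyte and macrophage genes were lower in 12 and higher in 2 of 44 tested cases, with a median log2 fold change of −0.36. The fall was stable for S100A8, VCAN, TLR8, IRF8 and TLR2. IRF8, a transcription factor of monocytes and dendritic cells (ENSG00000140968, chr16:85898803-85922609), had 209, 199, 234 and 219 CPM with EZH2i and 330, 288, 319 and 323 CPM with DMSO. The groups were far apart for their spread, with a log2 fold change of −0.55 (SE 0.07, adjusted p = 0.000338). S100A8, a calcium-binding protein of phagocytes, was nearly silent, at 0.131 ± 0.046 CPM with EZH2i and 0.417 ± 0.039 CPM with DMSO (−1.64, adjusted p = 0.00317). TLR2, the receptor for bacterial lipoproteins, had 28.5 ± 4.3 CPM with EZH2i and 41.1 ± 5.6 CPM with DMSO (adjusted p = 0.0118), whereas TLR4, the receptor for lipopolysaccharide, was a stable gene in the other direction, with 12.4 ± 2.5 CPM with EZH2i and 8.199 ± 1.1 CPM with DMSO (adjusted p = 0.0102). The summed level of the tested list was 978 to 1079 CPM with EZH2i and 1179 to 1285 CPM with DMSO. The count of lower monocyte genes was 9, 17, 8 and 5 without DMSO replicate 1, 2, 3 and 4. Of 36 tested pattern recognition and inflammasome genes, some of them on the monocyte list, 8 fell and TLR4 rose. LY86, a partner of a Toll-like receptor relative, fell by 0.72 (adjusted p = 0.0122) and was stable.

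Cytokine genes shared this direction. Of 35 tested chemokines, interleukins and their receptors 9 fell and 1 rose, with 6 stable falls and a median log2 fold change of −0.32. CCL2, which draws monocytes, had 0.274, 0.121, 0.288 and 0.230 CPM with EZH2i and 0.693, 0.935, 1.09 and 1.42 CPM with DMSO. It fell by 2.22 (SE 0.27, adjusted p = 0.000255). IL1B had 0.438, 0.382, 0.445 and 0.402 CPM with EZH2i and 1.72, 0.935, 1.78 and 2.15 CPM with DMSO, a fall of 1.99 (adjusted p = 0.0111). CCL4, CCL4L2 and CCL3L3 were stable too, with log2 fold changes of −1.35, −1.16 and −0.79, but these are near-identical copies between which reads may have been split. CXCL8, at 3.71 ± 1.1 CPM with EZH2i and 7.29 ± 2.7 CPM with DMSO, lost its call without DMSO replicate 1, 3 or 4. Without DMSO replicates 1 to 4 the list had 9, 13, 8 and 6 lower genes.

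Among transcription factors of blood cells, 7 of 38 tested rose and 3 fell. Stable rises were those of GATA2, GFI1B, NFIA, BCL6 and TCF4, and stable falls those of IRF8 and CEBPB, for which 11.8% of exon bases are shared. TCF4, an E protein of plasmacytoid dendritic cells, had 11.2 ± 1.5 CPM with EZH2i and 7.21 ± 0.64 CPM with DMSO (SD, n = 4 each, log2 fold change 0.64, adjusted p = 0.00282). GFI1B, a repressor of red cell and megakaryocyte progenitors, remained below 1 CPM in all libraries, with 0.684, 0.763, 0.236 and 0.345 CPM with EZH2i and 0.194, 0.0935, 0.0446 and 0.158 CPM with DMSO (2.04, adjusted p = 0.0158). FLT3, the receptor kinase on which this line is known to depend, fell by 0.51 (adjusted p = 0.00949), with 430, 442, 528 and 564 CPM with EZH2i and 810, 579, 670 and 728 CPM with DMSO. MEF2C, another factor of MLL leukaemia, had 278 ± 47 CPM with EZH2i and 409 ± 81 CPM with DMSO, and its call was lost without DMSO replicate 1 or 4. Of the 24 tested self-renewal genes of MLL leukaemia, FLT3 and MEF2C were the 2 called and the median log2 fold change was 0.03.

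Some immediate early genes and feedback regulators of the MAPK pathway rose. These genes are switched on within minutes to hours of growth factor signalling, and the feedback regulators then damp the same pathway. Of 21 tested immediate early genes 4 rose and 17 did not pass, with 6 higher and 3 lower at an unadjusted p of 0.05. Their median log2 fold change was 0.19 with all libraries and 0.06 without DMSO replicate 1. EGR2, a zinc finger factor of this class (ENSG00000122877, chr10:62811996-62919900), had 3.70, 3.48, 3.64 and 3.99 CPM with EZH2i and 0.832, 0.998, 1.05 and 1.11 CPM with DMSO. Both groups were narrow, and the log2 fold change of 1.89 (SE 0.22, adjusted p = 0.000194) lay between 1.82 and 1.94 in the leave-out fits. EGR1 rose by 0.71 (adjusted p = 0.00812) and EGR3 by 0.78 (adjusted p = 0.0102), both stable, while NR4A3 was called at 1.32 without being stable. Among 28 tested feedback regulators 9 rose and 1 fell, with a median log2 fold change of 0.16, 5 stable rises and 1 stable fall. SPRY1 and SPRY2, which block signalling to RAS, had log2 fold changes of 0.76 each. SPRY1 measured 11.4, 10.9, 9.25 and 10.3 CPM with EZH2i and 5.60, 7.95, 5.93 and 5.39 CPM with DMSO. DUSP16, a phosphatase of stress kinases, had 8.70 ± 0.36 CPM with EZH2i and 5.31 ± 1.1 CPM with DMSO (adjusted p = 0.00217). CCND1, the cyclin that reads this pathway, rose by 0.73 and PHLDA1 by 0.83, whereas IER3 fell by 0.64. For CCND1 and IER3 10.3% and 26.5% of the exon bases are shared with another gene. The number of feedback regulators higher without DMSO replicates 1 to 4 was 8, 11, 5 and 5.

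RGS proteins shorten signals from G protein-coupled receptors. Among genes grouped by the first letters of their symbols, with at least 15 tested members each, the RGS group had the highest share of stable genes, 5 of 16. Since the group was picked for that share, the value is a description. RGS1 had 58.2, 70.1, 90.0 and 120.6 CPM with EZH2i and 53.9, 24.1, 40.3 and 43.5 CPM with DMSO. RGS16 had 68.4, 58.2, 89.3 and 97.3 CPM with EZH2i and 40.6, 35.1, 55.0 and 55.7 CPM with DMSO. All EZH2i libraries were above all DMSO libraries in both, with log2 fold changes of 1.07 (adjusted p = 0.0108) and 0.75 (adjusted p = 0.0156). RGS2 averaged 7.50 ± 0.64 CPM with EZH2i and 3.62 ± 0.86 CPM with DMSO (SD, n = 4 each, 1.05, adjusted p = 0.000858), and RGS12 12.4 ± 0.37 CPM with EZH2i and 8.81 ± 0.96 CPM with DMSO (0.49, adjusted p = 0.00375). RGS13 had 0.493, 0.864, 0.734 and 1.23 CPM with EZH2i and was nearly silent with DMSO, at 0.222, 0, 0.178 and 0.178 CPM. RGS3 was also called higher and RGS10 lower, neither of them stable, and the other 9 did not pass the test.

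TGF-beta and Notch genes were called in both directions, with 6 of 57 tested higher and 2 lower. The activin antagonist FST was the largest, with 2.22, 2.89, 0.681 and 0.804 CPM with EZH2i and 0.360, 0.343, 0.134 and 0.197 CPM with DMSO (log2 fold change 2.72, adjusted p = 0.0119). It shows the split between replicates 1 and 2 and replicates 3 and 4 in both groups. ID3, a target of BMP signals, rose by 1.84, the type II receptors BMPR2 and ACVR2B by 0.70 and 0.43, and all 3 were stable. ACVRL1, a type I receptor, fell by 0.91 (adjusted p = 0.000949), with 2.90 ± 0.28 CPM with EZH2i and 5.44 ± 0.48 CPM with DMSO. The Notch ligand JAG1 fell by 0.43 (adjusted p = 0.0042).

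Genes of the extracellular matrix rose in 10 of 60 tested cases, with a median log2 fold change of 0.26. By edgeR 0 fell, with 1 lower at an unadjusted p of 0.05 and 0 by DESeq2. That count depends on the list, since the proteoglycan VCAN, a stable fall (log2 fold change −1.29), was not on it. LAMC1, a laminin chain and the most abundant of the stable ones, had 89.1, 81.6, 77.8 and 74.5 CPM with EZH2i and 48.9, 63.6, 46.8 and 49.8 CPM with DMSO (0.63, adjusted p = 0.0022). TNXB, tenascin X, had 3.02 ± 0.70 CPM with EZH2i and 1.02 ± 0.39 CPM with DMSO (1.58, adjusted p = 0.00193); it has a near-identical pseudogene, so its counts are uncertain. COL1A2, LOXL4 and ADAMTS10 completed the stable members, each with at most 2.85 CPM in any of the 8 libraries. HSPG2, perlecan, at 80.6 ± 22 CPM with EZH2i and 41.9 ± 19 CPM with DMSO, was called only with DMSO replicates 1, 3 and 4 all present. Of 11 tested epithelial and fibroblast markers 7 rose, with stable rises of COL1A2 and KRT18, and without DMSO replicates 1 to 4 the number higher was 5, 7, 4 and 2. KRT18, a keratin also made by many non-epithelial cells, had 20.4 ± 4.0 CPM with EZH2i and 12.6 ± 1.8 CPM with DMSO (adjusted p = 0.00434), with 16.3% of its exon bases shared and many pseudogenes. The summed level of the tested markers was 31.4 to 49.4 CPM with EZH2i and 23.1 to 30.9 CPM with DMSO. Of the defining markers CDH1 and KRT5 were at 0 in all 8 libraries, and COL3A1, DCN and PDGFRA had at most 0.0554 CPM in any of them. EPCAM reached 0.274 CPM with EZH2i and 0.0891 CPM with DMSO. LUM had 0.274, 0.462, 0.105 and 0.287 CPM with EZH2i and 0.0554, 0, 0.0668 and 0.0197 CPM with DMSO, and its call (2.88, adjusted p = 0.0128) was lost without DMSO replicate 4. The part of other cell types in these counts was not tested.

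Sarcomere and actin-binding genes rose in 12 of 67 tested cases and fell in 1, with a median of 0.22. Next to XIRP1 the stable ones were DES, SYNPO2, CSRP3 and CORO2A. DES, the muscle filament desmin, had 2.96, 2.89, 2.07 and 2.44 CPM with EZH2i and 0.693, 0.811, 0.446 and 0.513 CPM with DMSO (log2 fold change 2.09, SE 0.27, adjusted p = 0.000425). SYNPO2, which bundles actin, was well expressed, with 106, 120, 106 and 117 CPM with EZH2i and 77.1, 79.2, 72.0 and 73.4 CPM with DMSO (0.57, adjusted p = 0.000791). Both have narrow groups that do not overlap. CSRP3, a muscle LIM protein, had 6.95 ± 0.71 CPM with EZH2i and 3.28 ± 1.1 CPM with DMSO (SD, n = 4 each, 1.09, adjusted p = 0.00204). It lies on chromosome 11 beside E2F8 and NAV2, and these 3 neighbouring genes were all called higher. Of 20 tested T and NK cell genes 3 rose and CD48 fell. CD3D, a T cell receptor chain, had 7.67, 7.47, 6.86 and 6.55 CPM with EZH2i and 5.52, 3.55, 3.68 and 4.01 CPM with DMSO (0.77, adjusted p = 0.00782), while its partner CD3E stayed at or below 0.115 CPM in all 8 libraries. The adhesion receptor CD44 rose by 0.78 (adjusted p = 0.00307), with 147, 134, 137 and 145 CPM with EZH2i and 71.3, 106, 75.7 and 74.6 CPM with DMSO, and was the only stable rise among 34 tested integrin and adhesion genes, of which 6 were higher and 2 lower.

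The integrated stress response raises amino acid supply and tRNA charging through the factor ATF4. Of 38 tested genes of this response 10 fell, and the median log2 fold change was −0.27. By edgeR 0 rose, as was also the case at an unadjusted p of 0.05 and by DESeq2. Stable falls were those of DDIT3, TRIB3, WARS, PSPH and SARS. TRIB3, a pseudokinase target of ATF4, had 162, 144, 147 and 119 CPM with EZH2i and 267, 229, 211 and 203 CPM with DMSO (−0.67, adjusted p = 0.0105). WARS, the tryptophan tRNA ligase and also an interferon target, had 257, 227, 239 and 198 CPM with EZH2i and 316, 375, 380 and 377 CPM with DMSO (−0.65, adjusted p = 0.00316). SARS, the serine tRNA ligase, had 133 ± 12 CPM with EZH2i and 182 ± 8.9 CPM with DMSO (−0.46, adjusted p = 0.00419), and PSPH, the last enzyme of serine synthesis, fell by 0.63 (adjusted p = 0.0104). DDIT3, the stress factor CHOP, fell by 0.71, with 27.2% of its exon bases shared. The list had 6, 9, 7 and 5 lower genes without DMSO replicates 1 to 4, so that leaving out DMSO replicate 2 did not add to it.

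In fatty acid oxidation 5 of 60 tested genes rose and 5 fell. Beside ECI2 the stable ones were ACOT7, a thioesterase that rose by 0.84 with 20.3% of its exon bases shared, and the peroxisomal reductase PECR, which fell by 0.53 (adjusted p = 0.0109). In glycolysis ENO2, the neuronal enolase, was the stable rise among 3 called of 27 tested, with 8.70 ± 1.7 CPM with EZH2i and 4.797 ± 0.96 CPM with DMSO (adjusted p = 0.0102). The chaperone CALR, calreticulin, which loads MHC class I molecules, had 994, 884, 809 and 859 CPM with EZH2i and 455, 612, 444 and 468 CPM with DMSO. It rose by 0.84 (SE 0.12, adjusted p = 0.000791). It was the only one of 17 tested class I presentation genes that rose, and CD1D was the only one that fell.

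The lists of chromatin and cell cycle genes held 0 to 4 stable genes each. Over all tested genes the stable share was 2.82%. Of 18 tested genes that write or erase DNA methylation 5 rose and 1 fell. DNMT3B, a de novo methyltransferase, had 29.5, 25.7, 29.03 and 28.1 CPM with EZH2i and 21.8, 22.4, 20.8 and 20.1 CPM with DMSO (log2 fold change 0.40, SE 0.07, adjusted p = 0.00399). TET1, which oxidises methylated cytosine, had 8.86 ± 1.3 CPM with EZH2i and 6.18 ± 0.19 CPM with DMSO (SD, n = 4 each, adjusted p = 0.015). These 2 were stable, while DNMT3A, TET2 and IDH2 were not. Of 25 tested PRC1 subunits and H3K27 demethylases RYBP and BCORL1 were called, neither of them stable. Imprinted genes were called in 6 of 25 cases. PLAGL1 and the cell cycle inhibitor CDKN1C rose by 1.04 and 1.29, and PEG3 and SNRPN fell by 1.08 and 0.43, all stable, with 12.9% and 23.8% of exon bases shared for PEG3 and SNRPN. Of 6 tested CDK inhibitors CDKN1C was the only one called, at 1.77 ± 0.41 CPM with EZH2i and 0.740 ± 0.28 CPM with DMSO (adjusted p = 0.00837).

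DNA replication and E2F target genes rose in 7 of 47 tested cases, with a median of 0.11. E2F7 and E2F8, the atypical E2F repressors, rose by 0.66 and 0.73 (adjusted p = 0.000858 and 0.00204), and ORC1 and RRM2 were the other stable genes. Of 32 tested mitosis genes MKI67 alone was called, with 192, 158, 153 and 150 CPM with EZH2i and 50.2, 143, 79.6 and 71.3 CPM with DMSO. DMSO replicate 2 was close to the EZH2i libraries there, and the call was lost without DMSO replicate 4. In the BCL2 family the cell death activator BID fell by 0.34 (adjusted p = 0.0165) as the only stable gene of 16 tested. BCL2L11 and BMF, further activators, were called higher at 0.55 each, but neither call was stable, and 10.9% of the exon bases of BCL2L11 are shared. Among 27 tested p53 targets TP53INP1 was the only stable gene (0.61, adjusted p = 0.0053).

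Further lists held genes called in both directions. Of 48 tested genes of proteoglycans and glycosaminoglycan synthesis 3 rose and 3 fell, with stable rises of the cell surface proteoglycan GPC3 and of XYLT1, which starts the sugar chains, and stable falls of VCAN, CHST2 and the sulphatase SULF2. GPC3 had 40.2, 34.7, 29.4 and 30.98 CPM with EZH2i and 16.4, 23.3, 15.4 and 15.3 CPM with DMSO (0.95, adjusted p = 0.000949). Of 40 tested semaphorin, plexin and ephrin genes, which guide growing axons and migrating cells, 6 rose and 2 fell. The ephrin EFNA5 rose by 0.56 and SEMA4A fell by 0.64, and these 2 were stable. Of 47 tested glutathione and antioxidant genes 6 fell and 2 rose. None of the falls, which include TXN, NQO1 and SOD2, was stable, and 1 of the rises was.

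Cytokine receptors and JAK-STAT genes fell in 5 and rose in 2 of 53 tested cases, with FLT3 as the stable one. Among 18 tested B cell genes IGLL1 rose and FCER2 fell in a stable manner, and among 14 tested platelet genes VWF and GFI1B rose and PLEK, the kinase substrate pleckstrin, fell, with 152 ± 5.6 CPM with EZH2i and 212 ± 26 CPM with DMSO (−0.48, adjusted p = 0.0102). Of the defining platelet genes PF4 was at 0 in each EZH2i and DMSO library. ITGA2B had 0.520, 0.301, 0.314 and 0.430 CPM with EZH2i and 0.111, 0.374, 0.134 and 0.217 CPM with DMSO (log2 fold change 0.92, adjusted p = 0.132). The 2 called of 20 tested red cell and haem genes, the 1 called of 14 tested MHC class II genes (HLA-DRA) and the 2 called of 40 tested ion channels were not stable. Of 9 tested genes on a list of cancer-testis genes and their relatives 1 was called, the MAGE family relative MAGED1. It was stable, at 0.253 ± 0.090 CPM with EZH2i and 0.0518 ± 0.027 CPM with DMSO.

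Leaving out DMSO replicate 2 raised the calls over all 16555 tested genes from 1259 to 4606, with 2296 higher and 2310 lower. Several gene groups were also called more often in that fit. Of 80 tested cytosolic ribosomal protein genes 0 were called by edgeR with all libraries (29 lower and 0 higher at an unadjusted p of 0.05, and 2 lower by DESeq2) and without DMSO replicate 1, 3 or 4, whereas 35 were lower and 4 higher without replicate 2. Of 78 tested nuclear genes of the respiratory chain 5 were lower with all libraries (15 by DESeq2, and 35 at an unadjusted p of 0.05). SDHB was the stable one of the 5. Without replicate 2, 38 of the 78 were lower and 3 higher. Of 13 genes encoded by the mitochondrial genome MT-ATP8 was called with all libraries (3 by DESeq2, and 10 higher at an unadjusted p of 0.05), none without replicate 1, 3 or 4, and 11 were higher without replicate 2. MT-CO1, which measured 1828, 1489, 1579 and 1730 CPM with EZH2i and 448, 1725, 1165 and 951 CPM with DMSO, shows the pattern of these genes in the DMSO libraries. It was lowest in DMSO replicate 1, where mitochondrially encoded transcripts of all kinds took the largest share, 1.70%. The log2 fold change of MT-CO1, 0.63, had an adjusted p of 0.123. The part of mitochondrial content in these counts was not tested.

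Unstable calls include some of the larger fold changes. FKBP5, a chaperone partner and glucocorticoid target, had 117, 114, 104 and 121 CPM with EZH2i and 21.9, 92.5, 56.8 and 43.3 CPM with DMSO. The EZH2i libraries were nearly equal and the DMSO libraries were spread over a wide range. Its log2 fold change of 1.09 became 0.84 without DMSO replicate 1 and 1.48 without replicate 2, and the call was lost without replicate 3 or 4. NCAM1, the adhesion molecule CD56, had 64.3, 67.4, 42.0 and 43.3 CPM with EZH2i and 20.7, 38.8, 24.8 and 20.8 CPM with DMSO (1.05, adjusted p = 0.0158) and was lost only without replicate 4. NLRP12, a regulator of inflammation in myeloid cells, had 5.50, 4.00, 5.16 and 3.47 CPM with EZH2i and 9.07, 10.2, 11.8 and 11.2 CPM with DMSO. Its groups were far apart and its fold change hardly moved, between −1.29 and −1.17, but its adjusted p of 0.0453 was close to the threshold, and the call was lost without replicate 1, 3 or 4. In the fit of the 8 libraries its adjusted p was 0.0212. C1orf186, LRRC25, CARD9 and IFI27L2 were the other genes of this kind; C1orf186 and CARD9 share more than 10% of their exon bases with another gene. Over all 1259 calls 130 were lost only without DMSO replicate 4, 16 only without replicate 3 and 8 only without replicate 1, and 333 were kept in 1 of the 4 fits.

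**Figure D4:**
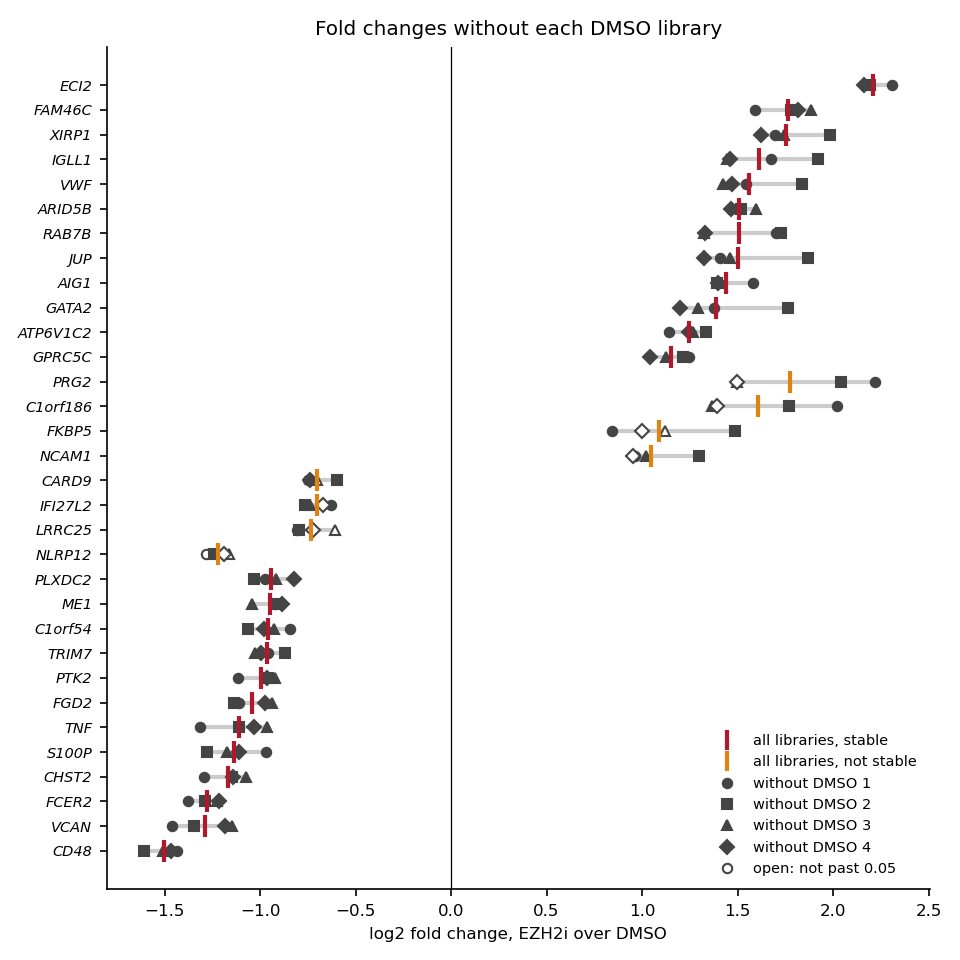
Log2 fold change of EZH2i over DMSO (x axis) of 24 stable genes (red bars, all libraries) and 8 genes that are not stable (orange bars), with the value without each DMSO library as a circle, square, triangle or diamond, open where the adjusted p is not past 0.05. All values stay on their side of 0; NLRP12 has a narrow range, from −1.29 to −1.17, but open symbols.

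Stable genes were 3.47% of the 12861 tested protein-coding genes and 0.625% of the 2081 tested long non-coding RNA genes. By level, stable rises made up 2.89% of the genes with a mean of 1 to 10 CPM and 0.886% of those with 100 CPM or more. For stable falls the share was 1.36% at 1 to 10 CPM and 1.77% at 100 CPM or more. Among the non-coding genes KIAA0125, in the immunoglobulin heavy chain locus (ENSG00000226777, chr14:105917979-105932642), rose by 2.44 (adjusted p = 0.00434), with 2.90, 3.42, 1.10 and 1.06 CPM with EZH2i and 0.388, 0.779, 0.267 and 0.197 CPM with DMSO. MIR600HG rose by 0.69 (adjusted p = 0.0063). AC026150.8 fell by 0.57 (adjusted p = 0.00108) and SNHG15, a host gene of a small nucleolar RNA, by 0.54 (adjusted p = 0.0128). RUSC1-AS1 rose by 0.89, with 19.7% of its exon bases shared with FDPS, a gene of sterol synthesis.

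EZH2i was also given to cells that received PRMT5i, which allows a contrast of both inhibitors (the combination) against PRMT5i alone. These libraries entered the choice of the stable genes through the filter on low counts, the scaling of libraries and the shared estimate of spread. That contrast, which shares no library with EZH2i against DMSO, called 688 genes, 4.16% of those tested, with 2.91% higher and 1.24% lower. Of the 442 stable genes outside the set-aside lists, 419 (94.8%) had the same sign there. The same sign was also seen in 699 (88.3%) of the 792 calls that were not stable. Among genes not called for EZH2i against DMSO the share was 61.4%. A total of 166 (37.6%) were called in the same direction and 2 in the opposite one. Counting all 467 stable genes, 169 (36.2%) were called in the same direction and 13 in the opposite one. The 169 are 24.6% of the calls of that contrast. Of the 792 calls that were not stable 92 (11.6%) were called in the same direction. Both contrasts take the same estimate of spread for each gene, so a gene with a small spread passes more readily in both. The shares called again are therefore not independent of the choice of the stable genes. Stable rises recurred in 118 of 275 cases (42.9%) and stable falls in 51 of 192 (26.6%). The median log2 fold change of the stable rises was 0.77 for EZH2i against DMSO and 0.49 for the combination against PRMT5i, and that of the stable falls was −0.63 and −0.25.

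Among stable genes called in both contrasts, those with the largest smaller change were ECI2, RGS13, KIAA0125, SEPP1, GFI1B and COL1A2. ECI2 had 8.22, 8.03, 9.47 and 11.1 CPM in the combination and 1.40, 1.15, 1.28 and 1.62 CPM with PRMT5i, a log2 fold change of 2.76 (adjusted p = 5.23e-08). SEPP1, a selenium carrier, had log2 fold changes of 2.22 (adjusted p = 0.000907) for EZH2i against DMSO and 2.25 (adjusted p = 0.000249) for the combination against PRMT5i, with 25.5% of its exon bases shared. XIRP1 rose by 1.98 in the combination (adjusted p = 0.000173) and CD48 fell by 1.64 (adjusted p = 7.04e-05). Not every process was called again. Of the 10 integrated stress genes lower with EZH2i, SARS, WARS, PSPH and TRIB3 had log2 fold changes of −0.09, −0.07, 0.01 and 0.18 in the combination against PRMT5i, with adjusted p of 0.642 to 0.988, and 3 genes of the list were higher there. For these named genes the difference between the 2 contrasts did not pass, with adjusted p of 0.131 to 0.332, whereas for DDIT3 it did (adjusted p = 0.037). In the combination against PRMT5i, MAPK feedback regulators had 3 genes higher and 1 lower, and monocyte genes had 11 lower. Of DNA replication and mitosis genes 23 of 47 and 24 of 32 were higher in the combination than with PRMT5i, beside 7 and 1 for EZH2i against DMSO. The difference between these counts was not tested. The difference of the 2 effects was tested gene by gene as an interaction, which called 48 genes (0.29%), 8 of them stable genes outside the set-aside lists.

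**Figure D5:**
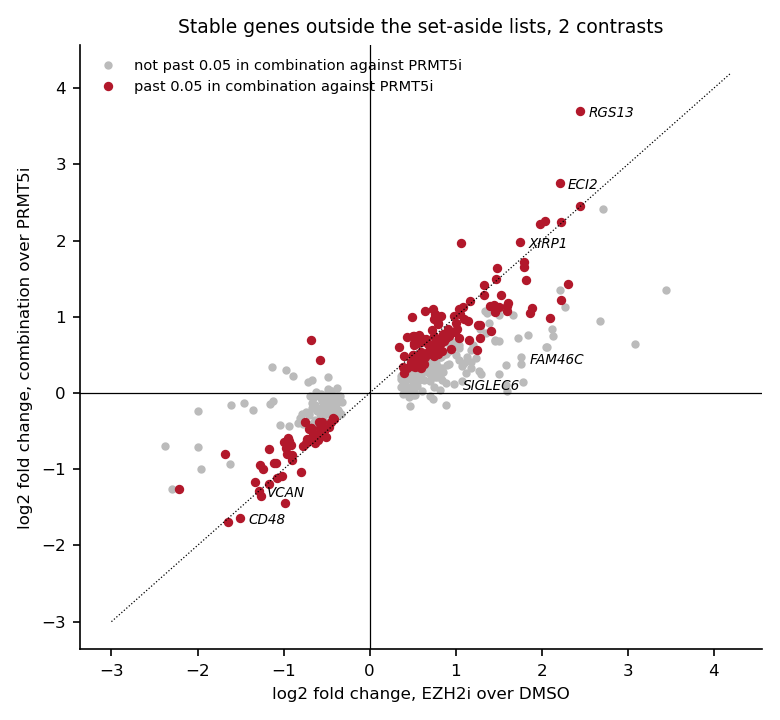
Log2 fold change of the combination over PRMT5i (y axis) against that of EZH2i over DMSO (x axis) for the 442 stable genes outside the set-aside lists, red where the first passed an adjusted p of 0.05. The dotted line marks equal values; 419 of the 442 points lie in the lower left or upper right quadrant, and the median of the stable rises is 0.77 on the x axis and 0.49 on the y axis.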

How the data were processed

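RNA of 16 MOLM-13 samples, 4 per treatment, was sequenced as paired-end libraries, per the labels' protocols. The values the authors deposited are expected counts by RSEM, 1 per gene and library, without depth scaling. Per the submitters' processing notes, STAR 2.5.3 and RSEM were used with the GRCh38.p7 build. The RSEM version, annotation, library kit and strand setting are not given in the sources used here. Genes that share at least 10% of their exon bases with another gene are named as uncertain. All 16 columns were used.

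Expected counts were rounded to whole numbers, and 12.0% of the deposited values were not whole. The filterByExpr function of edgeR 4.0.16 kept 16555 genes, of which 16437 matched GENCODE 29 (GRCh38) by gene identifier, the source of coordinates and exon overlaps. Size factors were trimmed means of M values (TMM). A quasi-likelihood model of 4 groups took in all 16 libraries, and p-values were adjusted by Benjamini-Hochberg over the whole table (threshold 0.05). CPM use TMM-scaled sizes and log2 CPM a prior count of 2. Standard errors come from the same fit, as the log2 fold change over the root of F. The fit was tested on simulated data. A call is stable if it passes in the same direction with all libraries and without each DMSO library in turn. With 31.1 to 52.9 M expected counts per library, replicate spread and not counting error limits the precision of all but the lowest genes.

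The members, lists and tests were chosen with earlier results of these data known. Named genes follow a rule. It takes EZH2, and among protein-coding genes outside the set-aside lists with a mean of 5 CPM or more in 1 group and groups that do not overlap the 12 higher and 12 lower stable and the 4 higher and 4 lower unstable genes with the largest fold change. It also takes up to 3 members of each list and leading symbol family with the smallest p, up to 3 stable long non-coding RNAs in each direction whose higher group averages 2 CPM or more, by fold change, and the 6 stable genes called in both contrasts with the largest smaller change. Other members were chosen after seeing their values, as examples of a count. Alternatives used DESeq2 1.42.0 and limma 3.58.1 (voom) in R 4.3.3, and Python 3.11.15 made tables and figures. RefSeq promoter windows matched 78.2% of stable rises and 77.6% of stable falls, under the 80% required, so promoter composition was not used.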

Additional observations from a re-analysis of the deposited data

Results flagged for a closer look

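In 19 cases 1 library of a group of 4 stood apart from the other 3 by more than Dixon's 95% limit, which chance exceeds in about 1 of 20 groups. Many groups were searched, so cases of this kind are expected by chance, and their number was not tested against that rate. In DMSO replicate 1 this was a low value for EZH2 (21.5 CPM), RRM2 (104.5 CPM), BCL6 (1.72 CPM), BMF (20.2 CPM), EGR1 (4.05 CPM), JAG1 (59.0 CPM) and WARS (316 CPM), and a high value for AIG1 (16.9 CPM), DDIT3 (38.1 CPM) and ECI2 (1.52 CPM). In DMSO replicate 2 it was a high value for CALR (612 CPM), CD44 (105.9 CPM), E2F8 (11.7 CPM), GPC3 (23.3 CPM), IL2RB (3.80 CPM) and PLAGL1 (3.93 CPM). In DMSO replicate 3 the non-coding AC026150.8 was low (10.8 CPM). Among EZH2i libraries ARHGEF10L was low in replicate 4 (0.431 CPM) and MYO5A in replicate 3 (26.8 CPM). Of these genes EZH2 was not called, BMF and IL2RB were called without being stable, and the others were stable.

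The interaction test of edgeR with Benjamini-Hochberg adjustment called 48 genes for which the effect of EZH2i differed between cells with and without PRMT5i, and 5 of these are among the genes named by rule. The difference, as the effect with PRMT5i minus the effect without, was −1.30 on the log2 scale for FAM46C (adjusted p = 0.00865), −0.86 for SIGLEC6 (adjusted p = 0.0151) and −1.05 for ADAMTS10 (adjusted p = 0.037). FAM46C rose by 1.76 for EZH2i against DMSO and had a log2 fold change of 0.47 for the combination against PRMT5i. The difference was 0.86 for DDIT3 (adjusted p = 0.037) and 0.69 for CYP2R1 (adjusted p = 0.0495), 2 genes that fell with EZH2i alone.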

How the results depend on the processing

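No named gene that was recomputed changed direction under any alternative run. Depth limits the precision for genes below 1 CPM. The count of genes called for EZH2i against DMSO, 1259 (681 higher, 578 lower), was 2149 (1050 and 1099) with DESeq2, 224 (144 and 80) by voom with a weight per group, and 133 (88 and 45) in a fit of the EZH2i and DMSO libraries alone. That smaller fit gave 82 (47 and 35), 827 (563 and 264), 5 (4 and 1) and 5 (4 and 1) without DMSO replicates 1 to 4. With total counts as library sizes 289 were lower. The GC correction gave 3315 (1225 and 2090). Replicates 1 and 2 alone gave 0 (0 and 0) by edgeR, with 1353 genes at an unadjusted p of 0.05 against 4467 with all libraries, and replicates 3 and 4 alone gave 1027 higher. The cause of these shifts was not tested. Leaving out 1 library gave 505 to 4606 genes, with 293 to 2296 higher and 212 to 2310 lower. The count was within 1.5 times with other size factors (1261), without a filter on low counts (915), with a mean of at least 5 CPM (981) and with a term for replicates 1 and 2 (1533). Of the stable genes named, TLR8, ZNF410, SNRPN, NFIA, GFI1B, IARS and SEMA4A lost the call without EZH2i replicate 2, with adjusted p of 0.0501 to 0.0602. The combination against PRMT5i, 688 genes, gave 2072 in its own 8 libraries and 1064 with DESeq2.

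Same-numbered EZH2i and DMSO replicates did not deviate together, with correlations of −0.272 to 0.209. Those of the combination and PRMT5i were positive, at 0.0258 to 0.236, but not above 0.1 in every pair, so the numbers were not taken to pair the samples in either contrast. With the replicate number as a block 1430 genes were called (806 higher, 624 lower), and with the block and the GC correction 3632 (1446 and 2186).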

Other observations

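Genes outside the processes described above also changed. Among exchange factors for small GTPases, ARHGEF12 fell by 0.78 (edgeR adjusted p = 0.000425), with 12.6, 12.9, 11.9 and 13.8 CPM with EZH2i and 19.4, 20.8, 23.6 and 23.9 CPM with DMSO, and ARHGEF10L fell by 1.33, and both were stable. Of 16 tested MYO genes the class I myosin MYO1D rose by 1.60 (adjusted p = 0.000673), with 0.904, 1.08, 0.865 and 0.804 CPM with EZH2i and 0.305, 0.343, 0.290 and 0.276 CPM with DMSO, and MYO5A, a vesicle motor, rose by 0.40. CD109, a co-receptor of TGF-beta, had 46.3, 55.7, 45.5 and 58.7 CPM with EZH2i and 29.3, 25.8, 28.1 and 25.4 CPM with DMSO (0.92, adjusted p = 0.000346), and the inhibitory receptor CD300A rose by 0.56 (adjusted p = 0.00217). Of 64 tested lysosomal genes 4 were called (6.25%), against 7.6% of all tested genes. The stable ones were the phosphatase ACP5, at 0.192 ± 0.033 CPM with EZH2i and 0.789 ± 0.17 CPM with DMSO, which fell by 1.9986, and the galactosidase GLA, which fell by 0.53 (adjusted p = 0.000496 and 0.00929).

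Called genes that are direct neighbours among the tested genes formed 8 runs of at least 3, of which 2 were higher and 6 lower. The higher ones were CSRP3, E2F8 and NAV2 on chromosome 11 and ZCCHC2, RP11-120K19.3 and PHLPP1 on chromosome 18, with 2 and 1 stable genes. Among the lower runs 3 hold interferon genes, and the runs of SUPT7L, SLC4A1AP and MRPL33 and of CCZ1, PMS2 and AIMP2 contain genes with shared exon bases. Over all tested genes 4.11% were called higher and 3.49% lower. How many runs these shares alone would give was not tested.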
